A study of Rattus norvegicus with 6 samples.

Results

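The receptors of luteinizing hormone (Lhcgr) and prolactin (Prlr) and 6 transcription factors of Leydig cells (Nr5a1, Nr5a2, Nr0b1, Gata4, Gata6 and Nr2f2) were taken by symbol from a table of 35291 rat genes, in which each of the 8 symbols labelled 1 row. They were chosen by their measured FPKM difference between diabetic and control testes, with the receptors lower and most factors alike, so this difference is given as a description, with its spread and without a test. The RNA came from testes of Sprague-Dawley rats, in 6 samples that are each taken here as 1 rat. Of these, 3 had diabetes mellitus (DM) and 3 were non-diabetic controls. The DM rats had eaten a high-fat diet before a single dose of streptozotocin, a toxin of pancreatic beta cells, and were sampled 8 weeks after it. The controls had received citrate buffer, and their diet is not given in the sources used here. Expression was given as FPKM, fragments scaled to transcript length and library size, so that levels of different genes can be compared. Since whole tissue was used, fewer cells of a type and less RNA per cell cannot be told apart.

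Leydig cells lie between the seminiferous tubules and make testosterone. Luteinizing hormone (LH) binds the product of Lhcgr on their surface, which raises cyclic AMP and activates protein kinase A, and cholesterol is then brought to the mitochondria and converted to steroids. Prolactin acts on rodent Leydig cells through the product of Prlr, a cytokine receptor that signals through Jak2 and Stat5. Nr5a1 (steroidogenic factor 1, SF-1) activates the steroid enzyme genes, Nr5a2 is its close relative, and Nr0b1 (DAX-1) represses it. Gata4 and Gata6 act on many of the same promoters, and Nr2f2 (COUP-TFII) marks interstitial cells including Leydig progenitors. Nr5a1, Nr0b1 and Gata4 are known in Sertoli cells too.

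The 250 bases before the start of both receptor genes are shown because of the 8 genes these differed most between the groups and because the factors are DNA-binding proteins or their partners. They were read from RefSeq (assembly GRCr8), whose table held windows for 6 of the 8 genes, with 2 starts for Prlr. The Lhcgr window is chr6:11415165-11415414, and the Prlr windows are chr2:60861515-60861764 and chr2:60909409-60909658, all on the plus strand. Capitals mark AGGTCA, a core motif of nuclear receptor sites, and GGGCGG, the GC box.
Lhcgr: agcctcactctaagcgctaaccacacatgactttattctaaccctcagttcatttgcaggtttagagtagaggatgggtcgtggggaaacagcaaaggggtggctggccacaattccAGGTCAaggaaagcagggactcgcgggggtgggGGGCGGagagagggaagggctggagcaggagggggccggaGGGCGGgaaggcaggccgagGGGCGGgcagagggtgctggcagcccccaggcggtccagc
Prlr first start: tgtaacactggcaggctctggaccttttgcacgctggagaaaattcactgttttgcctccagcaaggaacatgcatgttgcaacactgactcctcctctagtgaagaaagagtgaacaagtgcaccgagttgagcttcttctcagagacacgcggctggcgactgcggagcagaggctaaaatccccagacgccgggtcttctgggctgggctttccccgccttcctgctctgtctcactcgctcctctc
Prlr second start: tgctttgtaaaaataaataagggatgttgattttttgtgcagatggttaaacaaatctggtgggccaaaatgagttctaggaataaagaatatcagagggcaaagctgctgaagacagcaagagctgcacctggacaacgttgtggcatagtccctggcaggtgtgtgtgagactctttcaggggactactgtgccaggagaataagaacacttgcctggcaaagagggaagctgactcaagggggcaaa

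The Lhcgr window held 1 AGGTCA, beginning at position -133 from the start, and 3 copies of GGGCGG, beginning at -100, -60 and -40. Its GC content was 63.2%, against a median of 51.2% over all windows. The Prlr windows, with a GC content of 55.2% and 45.6%, held neither motif. Among the factors, AGGTCA also matched in the windows of Nr5a2 and Nr0b1, and GGGCGG in those of Nr0b1 and Gata6. Over all 33469 windows of 300 bases, which include 50 bases after the start, AGGTCA was found in 16.2% and GGGCGG in 33.1%, and 8.97% had at least 3 GC boxes. The SF-1 site AAGGTCA, which contains AGGTCA, and the GATA site AGATAA occur in 4.61% and 11.6% of all windows and had no match in the windows of the 6 genes. TATAAA, found in 14.2% of all windows, matched that of Nr0b1 alone among the 6 genes. Both strands were searched, and AGGTCA, the GC box and TATAAA were added after the windows had been seen.

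In the control testis Nr0b1 stood highest, at 5.38 ± 0.885 FPKM (SD, n = 3), followed by Gata4 at 5.21 ± 0.577 and Lhcgr at 4.72 ± 0.292 FPKM, and the ranges of these neighbours overlapped. Nr5a1 at 3.32 ± 0.458, Prlr at 3.28 ± 0.444 and Nr2f2 at 3.09 ± 0.162 FPKM came next and overlapped with each other, below every Lhcgr value. Gata6 at 2.05 ± 0.195 and Nr5a2 at 0.466 ± 0.0510 FPKM lay below them without overlap. In the DM testis Gata4, Nr0b1, Nr5a1 and Nr2f2 came first. Lhcgr moved from rank 3 to rank 5, where it overlapped with Nr2f2, and Prlr moved from rank 5 to rank 7, below every Gata6 value.

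**Figure D1:**
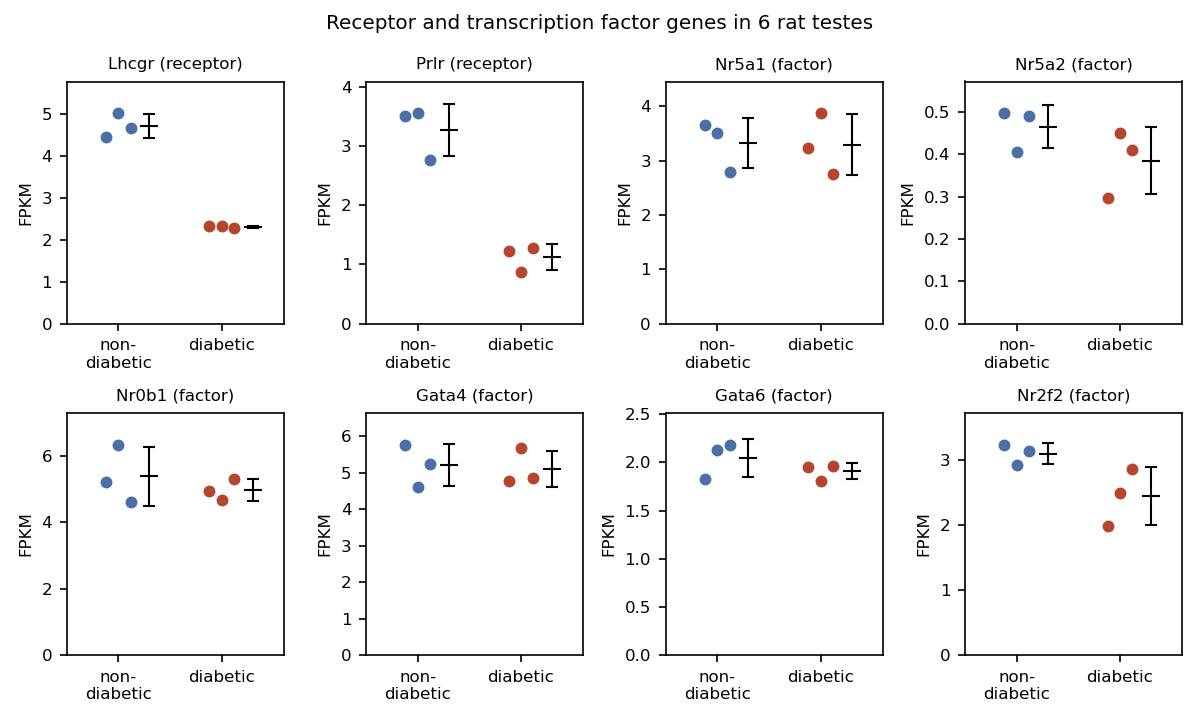
FPKM (y axis, from 0) of the 8 genes in each of 3 control (blue) and 3 diabetic (red) rats, with the mean ± SD in black. The groups are separate for Lhcgr, Prlr and, narrowly, Nr2f2, and overlap for the other 5 genes.

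Lhcgr (ENSRNOG00000016712) was at 2.32, 2.32 and 2.29 FPKM in the DM rats and at 4.45, 5.03 and 4.68 FPKM in the controls. Every DM rat lay below every control, and the DM rats hardly differed from each other. Their mean was 2.31 ± 0.0180 FPKM (SD, n = 3), 48.9% of the control mean. On the scale of log2(FPKM + 0.1), which is used for all differences below and understates the change of low genes, Lhcgr differed by -0.999 with a standard error of 0.11. Leaving out single rats gave values from -1.04 to -0.95.

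Prlr (ENSRNOG00000057557) was at 1.22, 0.872 and 1.28 FPKM in the DM rats and at 3.50, 3.56 and 2.76 FPKM in the controls. The groups did not overlap here either, and the gap between them was wider than the range within either group. The DM mean of 1.12 ± 0.220 FPKM (SD, n = 3) was 34.3% of the control mean. The log2 difference of Prlr was -1.47 with a standard error of 0.20, and -1.59 to -1.31 when single rats were left out. A gene total does not separate the long and short forms of this receptor.

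Nr5a1 (ENSRNOG00000012682) was at 3.24, 3.87 and 2.76 FPKM in the DM rats and at 3.66, 3.50 and 2.80 FPKM in the controls. The groups covered nearly the same range. The log2 difference of Nr5a1 was -0.016 with a standard error of 0.17, and 0.013 after median-ratio scaling of the libraries. Nr5a2 (ENSRNOG00000000653) was at 0.296, 0.450 and 0.410 FPKM in the DM rats and at 0.498, 0.407 and 0.492 FPKM in the controls, with overlap. It was too low for the tested set and differed by -0.23 (standard error 0.28) in a fit without a lower limit. Nr0b1 (ENSRNOG00000003765) was at 4.94, 4.67 and 5.32 FPKM in the DM rats and at 5.21, 6.35 and 4.60 FPKM in the controls. Its DM values lay inside the control range, and its log2 difference was -0.10 (standard error 0.14).

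Gata4 (ENSRNOG00000010708) was at 4.77, 5.68 and 4.86 FPKM in the DM rats and at 5.78, 4.62 and 5.24 FPKM in the controls. Its DM values also lay inside the control range, with a log2 difference of -0.029 (standard error 0.12) that was 9.8e-05 after median-ratio scaling. Gata6 (ENSRNOG00000023433) was at 1.95, 1.81 and 1.97 FPKM in the DM rats and at 1.82, 2.13 and 2.19 FPKM in the controls, a log2 difference of -0.094 (standard error 0.15) with overlapping groups. Nr2f2 (ENSRNOG00000010308) was at 1.98, 2.48 and 2.86 FPKM in the DM rats and at 3.23, 2.91 and 3.13 FPKM in the controls. It was the factor whose groups were separate, though its highest DM and lowest control value were close. The log2 difference of Nr2f2 was -0.34 with a standard error of 0.16, and -0.46 to -0.21 when single rats were left out.

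Of the 8 genes, 3 were lower in every DM rat than in every control and 0 were higher. Among the 20338 genes that averaged 0.5 FPKM or more, which include 7 of the 8, 8.42% were lower and 4.56% higher without overlap (13.0% in all), and nothing is read from the members' count since the choice of genes used it. The receptors had a mean log2 difference of -1.23 and the 6 factors a median of -0.097, a gap of -1.14, while the median over all genes tested was -0.021. Within each rat, the mean receptor level minus the median factor level, in log2(FPKM + 0.1), was -0.56, -1.06 and -0.68 in the DM rats and 0.19, 0.40 and 0.28 in the controls. This difference was above 0 in every control and below 0 in every DM rat, although single receptors and factors were interleaved in both groups. It restates the values by which the genes were chosen. Its group means differed by -1.06 and not by -1.14, since the median factor was taken here within each rat.

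Ratios of genes within a rat are free of the scaling of its library. Lhcgr divided by Nr5a1 gave 0.717, 0.599 and 0.830 in the DM rats and 1.22, 1.44 and 1.67 in the controls. Prlr divided by Nr5a1 gave 0.378, 0.225 and 0.463 in the DM rats and 0.957, 1.02 and 0.988 in the controls. Both were lower in every DM rat, and so were the ratios of Lhcgr to Gata4, Gata6 and Nr0b1. The ratio of Nr5a1 to Gata4, a pair of factors, was 0.643 ± 0.0646 in the DM rats and 0.641 ± 0.112 in the controls (SD, n = 3 each). The ratio of Prlr to Lhcgr was 0.527, 0.376 and 0.558 in the DM rats and 0.786, 0.707 and 0.590 in the controls, separate by a small margin.

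**Figure D2:**
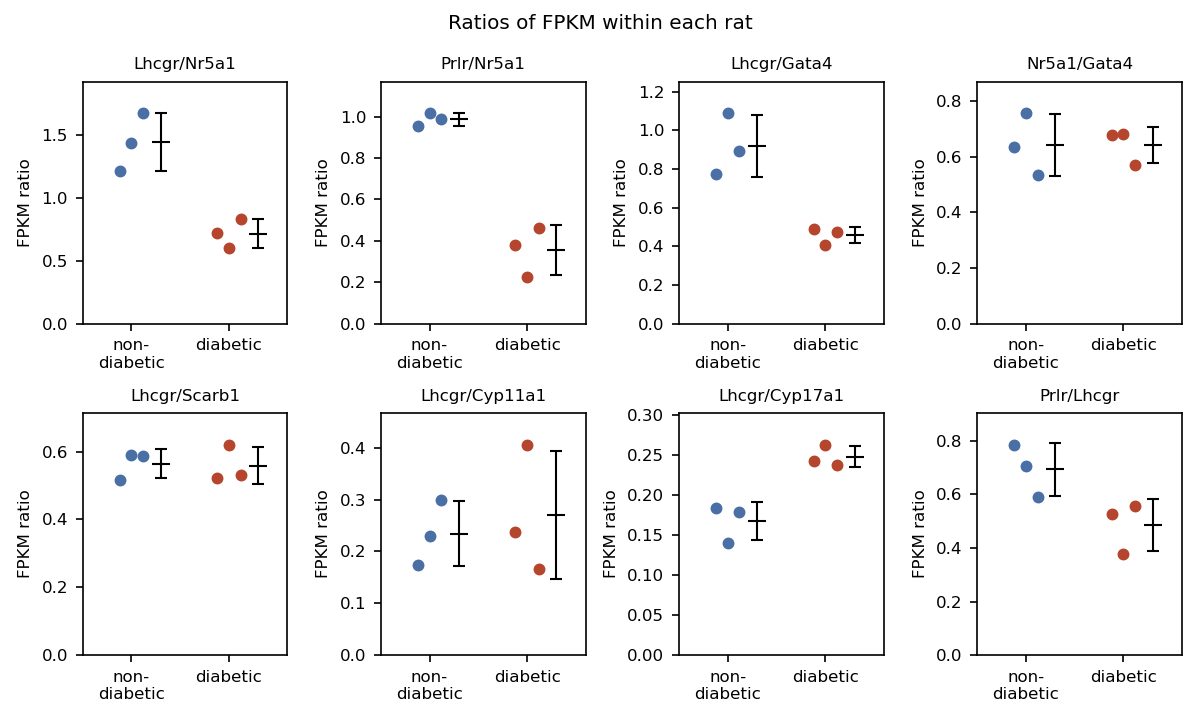
Ratio of the FPKM of gene pairs (y axis, from 0) within each of 3 control (blue) and 3 diabetic (red) rats, with the mean ± SD in black. Lhcgr/Nr5a1 and Prlr/Nr5a1 are lower in every diabetic rat, while Nr5a1/Gata4 and Lhcgr/Scarb1 overlap between the groups.

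Genes around the receptors and factors were tested with limma over the 20338 genes. A gene was called where its log2 fold change was 1 or more in size and its unadjusted p-value under 0.05, and Benjamini-Hochberg adjusted p-values are printed for single genes. Of all genes tested, 1.24% were called, 0.846% lower and 0.398% higher in DM. An unadjusted p-value under 0.05 was reached by 7.46% (4.99% lower and 2.47% higher) and an adjusted one by 0.0344%. The gene lists used below were chosen with earlier results of these data known, so their counts beside these shares are a description. In 4 pathway lists with 58 entries tested, 1 was called (1.72%), Met, and 9 had an unadjusted p-value under 0.05, all lower. The median log2 fold change of the 58 entries was -0.050.

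The list for LH receptor signalling, which is not limited to steps below the receptor, had 19 entries tested. Of these 0 were called by limma, and the median log2 fold change was -0.000827. Prkaca, a catalytic subunit of protein kinase A, was at 33.0 ± 1.153 FPKM in the DM rats and 33.4 ± 2.41 FPKM in the controls (SD, n = 3 each). Creb1, a factor that protein kinase A phosphorylates, was at 20.5 ± 1.66 and 23.5 ± 5.93 FPKM in the same order. An unadjusted p-value under 0.05 was reached by 2 entries. They were Adcy6, an adenylyl cyclase, with a log2 fold change of -0.60 and an adjusted p of 0.665, and Prkar2b, a regulatory subunit of protein kinase A, with -0.56 and an adjusted p of 0.629, both from limma.

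In the list for prolactin receptor signalling 10 entries were tested and 0 called, with a median log2 fold change of -0.065. Ghr, the growth hormone receptor and a relative of Prlr, was at 0.669, 0.562 and 0.697 FPKM in the DM rats and at 1.12, 1.32 and 1.40 FPKM in the controls. Its groups were separate, and its log2 fold change of -0.89 had an adjusted p of 0.433 from limma. Jak2, the kinase bound to the receptor, was at 5.13 ± 1.16 FPKM in the DM rats and 5.62 ± 1.01 FPKM in the controls. Stat5b, which carries the signal to the nucleus, was at 1.13 ± 0.0900 and 1.61 ± 0.285 FPKM with separate groups (adjusted p = 0.672 from limma). Stat5a, Socs1 and Socs3 were too low to be tested.

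Among partners of the factors 18 entries were tested and 0 called, with a median log2 fold change of -0.063. Zfpm2 (FOG2), the cofactor of Gata4, was at 0.832 ± 0.0617 FPKM in the DM rats and 0.972 ± 0.0758 FPKM in the controls. Nr3c1, the glucocorticoid receptor, has 2 entries, and 1 of them had the lowest value of the entries tested, -0.41 in log2 (adjusted p = 0.577 by limma).

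Of other receptors of Leydig cells 11 were tested, all 11 with a negative log2 fold change (median -0.30), where 55.6% of all genes tested were negative, and 5 were lower without overlap, where 8.42% of all genes tested were. Met, the receptor of hepatocyte growth factor, fell from 2.99 ± 0.0879 FPKM in the controls to 1.24 ± 0.0402 FPKM in the DM rats (SD, n = 3 each). Its log2 fold change was -1.21, with an adjusted p of 0.0559 by limma. Pdgfra, a growth factor receptor of interstitial cells, was at 7.45 ± 0.642 FPKM in the controls and 5.18 ± 0.508 FPKM in the DM rats, and its log2 fold change was -0.52, with an adjusted p of 0.353 by limma. Insr and Esr1, the insulin and estrogen receptors, had -0.43 and -0.41, whereas Igf1r, Avpr1a, Npr1 and Ptch1 lay between -0.025 and -0.0064.

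**Figure D3:**
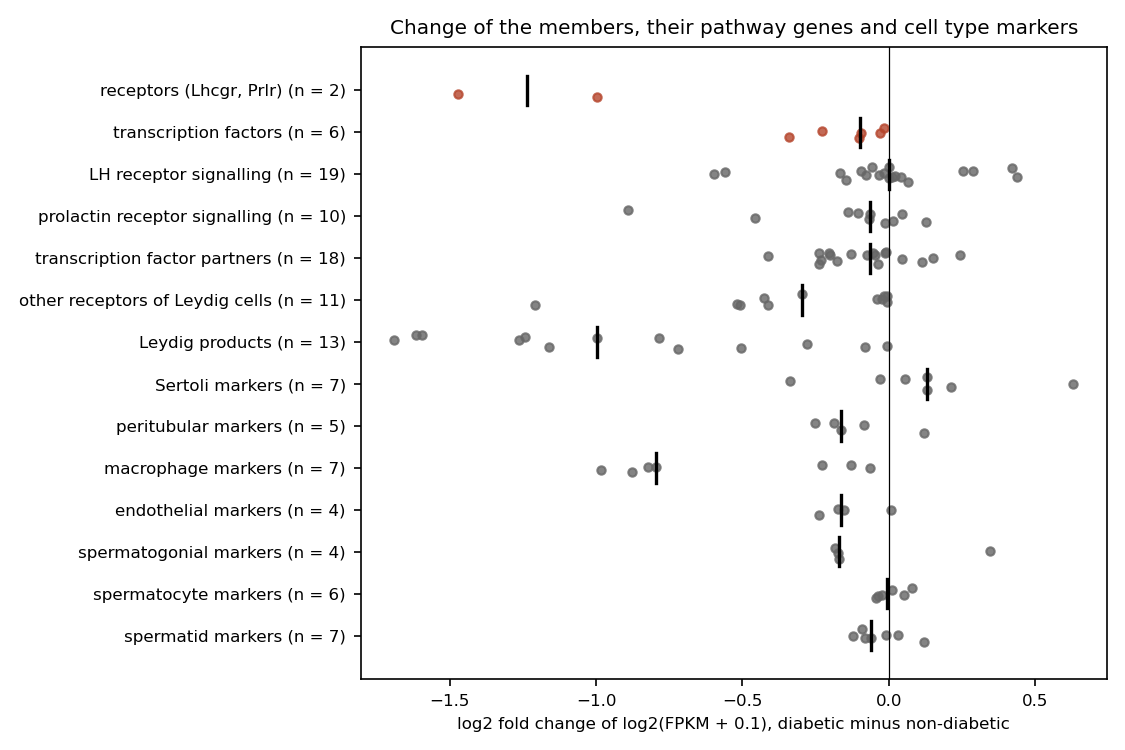
Log2 fold change (x axis, diabetic minus control, of FPKM + 0.1) of each gene as a point, by list, with the median of the list as a black bar. The receptors lie at -0.999 and -1.47, the factors between -0.34 and -0.016, and the Leydig products around a median of -0.996.

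Of 13 products of Leydig cells tested, 6 were called (46.2%), all lower, and the median log2 fold change was -0.996. The called genes included Star (-1.24), which moves cholesterol into mitochondria, and the hormone gene Insl3 (-1.62). The others were the steroid enzyme genes Cyp11a1 (-1.16), Cyp17a1 (-1.60), Hsd3b2 (-1.69) and Hsd17b3 (-1.26). Adjusted p-values from limma were 0.551 for Star, 0.486 for Cyp11a1, 0.484 for Hsd3b2 and Insl3, and 0.624 for Hsd17b3, whose groups overlapped. Cyp17a1 had an adjusted p of 0.0415 from limma, which was above 0.05 without DM replicate 1, 2 or 3 or control replicate 3, up to 0.147, and 0.0163 without control replicate 2. It was also above 0.05 in the limma fits without trend (0.0909), without a filter on low genes (0.0788) and with replicate numbers as blocks (0.186). Without DM replicate 2, which had the lowest Star and Cyp11a1, 3 of the products were called. Their summed level was 72.1 to 110.2 FPKM in the DM rats and 159.5 to 199 FPKM in the controls, so it moved with the receptors, and its part in their values was not tested.

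Lhcgr was also divided by 5 of these products, and no ratio was lower in every DM rat. All 5 fell at least as much as Scarb1 (log2 fold change -0.996). Products that differed less, such as Fdx1 (-0.28), Por (-0.080) and Cyb5a (-0.0062), were not used as divisors, so the ratios do not speak for all products. Lhcgr divided by Scarb1, the lipoprotein receptor that supplies cholesterol, was 0.559 ± 0.0541 in the DM rats and 0.564 ± 0.0421 in the controls (SD, n = 3 each), with overlap. Divided by Cyp11a1 it was 0.270 ± 0.123 and 0.234 ± 0.0629, again with overlap, and divided by Cyp17a1 it was higher in every DM rat, at 0.247 ± 0.0133 against 0.167 ± 0.0238. Divided by Star it was 0.180 ± 0.107 in the DM rats and 0.142 ± 0.0426 in the controls, and divided by Insl3 it was 0.863 ± 0.469 and 0.488 ± 0.0567, both with overlap. Nr5a1 divided by Cyp17a1 was 0.338, 0.438 and 0.286 in the DM rats and 0.150, 0.0970 and 0.106 in the controls, higher in every DM rat.

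**Figure D4:**
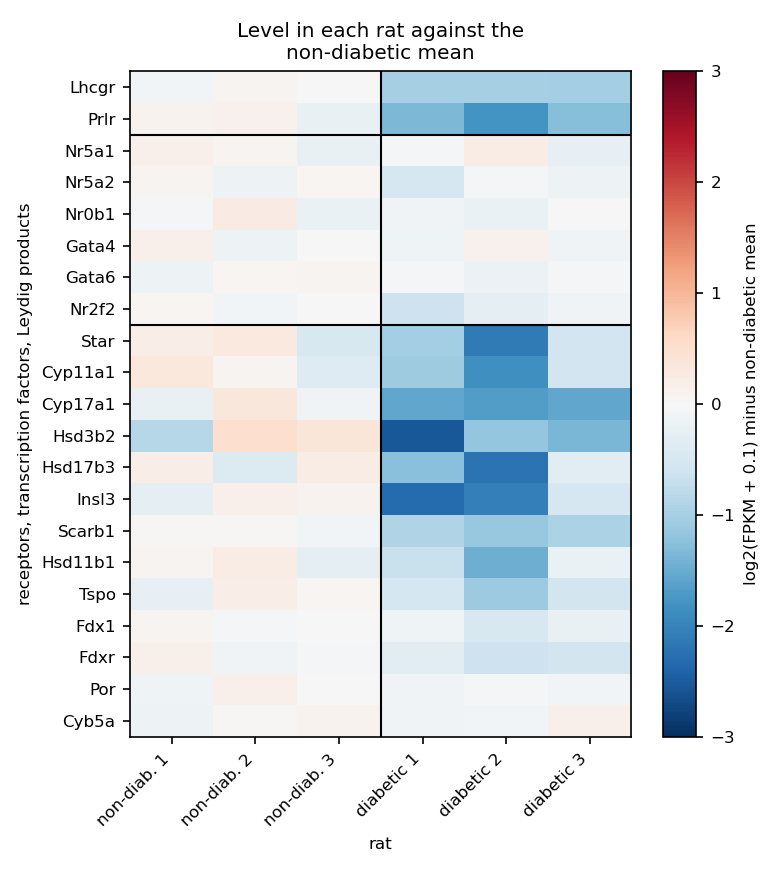
Log2(FPKM + 0.1) of each rat minus the mean of the 3 controls (colour, blue is lower), for the receptors, the factors and the 13 Leydig products tested (rows). Lhcgr, Prlr, Cyp17a1 and Scarb1 are blue in all 3 diabetic rats, while Nr5a1, Nr0b1, Gata4 and Gata6 stay near 0.

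Markers of other testis cells were read beside these values. Of 7 Sertoli markers tested 0 were called by limma, and 1 (Inha) had an unadjusted p-value under 0.05 (log2 fold change -0.34, adjusted p = 0.627). Their median log2 fold change was 0.13, and their summed level overlapped, at 54.1 to 58.4 FPKM in the DM rats and 52.5 to 62.3 FPKM in the controls. Most of this sum came from Cldn11, with a mean of 33.4 FPKM in the DM rats and 34.2 FPKM in the controls. Lhcgr divided by Fshr, the Sertoli receptor of follicle-stimulating hormone, was 0.994, 0.967 and 0.898 in the DM rats and 2.16, 2.11 and 2.13 in the controls. Of 7 macrophage markers 0 were called, but all 7 were negative (median -0.80) and 3, Cd68, Csf1r and C1qa, had an unadjusted p-value under 0.05. Their summed level was 27.4 to 33.2 FPKM in the DM rats and 34.3 to 36.2 FPKM in the controls, without overlap, and its part in the receptor values was not tested. Mrc1 gave most of that sum, with a mean of 20.8 FPKM in the DM rats and 21.6 FPKM in the controls and overlapping groups. Peritubular, endothelial, spermatogonial, spermatocyte and spermatid markers had 0 genes called, and the medians of these lists lay between -0.17 and -0.0068. Among the marker lists, Hsd3b5 of the Leydig products was at 0 in all rats.

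The profiles over the 6 rats closest to that of Lhcgr, by Pearson's r of log2(FPKM + 0.1), were those of Laptm5 (0.998), a lysosomal membrane gene of blood cells, Cers2 (0.996), a ceramide synthase gene, and LOC102552398 (0.994). Laptm5 was at 0.584, 0.561 and 0.584 FPKM in the DM rats and at 1.44, 1.54 and 1.51 FPKM in the controls. Closest to Prlr were Mgat4c (0.997), a glycosyltransferase gene, Scarb1 (0.993) and Calb2 (0.993), the calretinin gene. Calb2 was at 0.166, 0.0597 and 0.158 FPKM in the DM rats and at 2.30, 2.22 and 0.944 FPKM in the controls. All 6 points share the gap between the groups, and r was at least 0.95 for 108 genes with Lhcgr and 130 with Prlr.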

How the data were processed

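Groups came from the sample titles, 3 samples each. The extraction protocol in the labels names poly-T beads and then both poly(A)- and poly(A)+ fractions, and the titles list circRNA, lncRNA and mRNA, so which RNA fraction lies behind these values is not clear. The authors ran FastQC, BWA against rRNA, STAR and StringTie, and deposited FPKM for every gene. The genome build and tool versions are not given in the sources used here.

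Genes averaging 0.5 FPKM or more (20338) were fitted as log2(FPKM + 0.1) by limma 3.58.1 (eBayes with trend) under R 4.3.3, and a gene was called by the criterion the authors used for their screen, a log2 fold change of 1 or more in size with an unadjusted p-value under 0.05. P-values are two-sided and adjusted by Benjamini-Hochberg over all genes tested. The DESeq2 screen of the authors needs counts and was not run. Tables were made in Python 3.11.15. Members and lists were chosen with earlier results of these data known. The text names the members, list genes that were called or chosen by role, and the 3 genes most like each receptor. Hsd3b1, Pecam1 and Adrbk1 (an older name of Grk2) had no row.

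Depth in reads is unknown. Columns summed to 453304 to 478211 FPKM, and r across genes was 0.958 to 0.965 within and 0.957 to 0.966 between groups. Nothing says how the samples of a group were separated beyond their numbers, and each is taken here as a separate rat. The p-values set the group difference against the spread between these samples, drawn by limma towards a trend over all genes tested.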

Additional observations from a re-analysis of the deposited data

How the results depend on the processing

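The gap between receptors and factors, -1.14, was -0.82 with a pseudocount of 1, where Lhcgr was at -0.79 and Prlr at -1.01, and -1.18 to -1.04 when single rats were left out. Lhcgr lies at the fold threshold, on either side of it depending on the setting. Over all settings Nr5a1 ran from -0.14 to 0.10, Nr0b1 from -0.21 to 0.022 and Gata4 from -0.11 to 0.047, so their sign is not settled. Met, the pathway gene called (1), was not called with a pseudocount of 1 (0 genes by limma, with 1533 of all genes at an unadjusted p-value under 0.05), and leaving out single rats gave 1 to 1. The adjusted p of Met was 0.0104 to 0.333 over all settings.

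All genes called, 253, became 621 with no filter, 85 with protein-coding genes only and 91 with a pseudocount of 1, and 246 to 335 when single rats were left out. The lower share of them, 68.0%, was 89.4% with protein-coding genes only. At an adjusted p-value under 0.05 there were 7 genes, 12 without trend, 3 with no filter, 36 with protein-coding genes only, and 0 to 14 when single rats were left out. The lowest count, 0 by limma, came without control replicate 3 (1502 at an unadjusted p-value under 0.05), the highest without control replicate 1, and 4 without DM replicate 1. With the replicate number as a block there were 4. Whether rats with the same number share more than a number is not known. Their deviations correlated at 0.106, 0.0153 and 0.0979. DM replicates 1 and 3 correlated best with the control of their own number, and DM replicate 2 did not. Where a value moved, the cause was not tested.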

Other observations

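The DM rats were nearly alike in Lhcgr and far apart in several Leydig products. The coefficient of variation among the 3 DM rats was 0.778% for Lhcgr, and 0.556% of the genes tested had a lower one. It was 19.6% for Prlr, 8.96% for Scarb1 and 4.79% for Cyp17a1, but 48.3% for Star, 41.3% for Cyp11a1 and 75.4% for Insl3. Among the controls it was 6.19% for Lhcgr, 26.3% for Star and 15.4% for Insl3. Star was at 16.7, 7.70 and 22.8 FPKM and Insl3 at 1.89, 2.26 and 6.86 FPKM in the DM rats, so that DM replicate 3 was highest in both while its Lhcgr was the lowest of the 3. These genes were singled out after their values were seen, and the difference in spread was not tested.

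In the lists, 2 of the genes tested were higher in every DM rat than in every control, as were 4.56% of all genes tested. Lower in every DM rat were 10 of 58 pathway entries and 9 of 13 Leydig products, against 8.42% of all genes tested. So were 3 of 7 macrophage markers and 1 of 5 peritubular markers. Uchl1, a spermatogonial gene, was at 47.5 ± 4.91 against 37.3 ± 3.07 FPKM (SD, n = 3 each; log2 fold change 0.34, adjusted p = 0.485 from limma). Wt1, a Sertoli cell factor, was at 13.5 ± 0.430 against 12.2 ± 0.286 FPKM (log2 fold change 0.15, adjusted p = 0.703 from limma). Neither was called.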
